A study of Mus musculus with 6 samples.

Results

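Hyaluronan is made, bound and broken down by the products of 9 mouse genes followed here across lymph node (LN) stromal cells and embryonic fibroblasts. They are the synthases Has1, Has2 and Has3, the binding proteins Cd44, Tnfaip6 and Vcan, and Cemip, Hyal1 and Hyal2, which act in breakdown. The members were chosen by name, as the entries of the deposited table annotated to one of these genes. Of the 9, 8 had an entry naming that gene alone, each with 1 entry, among 19938 genes with such an entry. Hyal1 was named only in 2 entries that also name its neighbour Naa80, and those are given as shared entries.

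RNA was measured on 6 single-colour Affymetrix arrays. One array held freshly sorted stroma from LN of adult C57BL/6JJcl mice, digested with enzymes and sorted as CD45- CD31- podoplanin+ VCAM-1+. The LN stromal lines BLS12 and BLS4, established from BALB/cA mice, gave 2 arrays each, 1 from cells given 1 µg/ml of a goat polyclonal agonistic antibody to the lymphotoxin β receptor (LTβR) for 2 days and 1 from unstimulated cells. Fibroblasts grown from C57BL/6JJcl mouse embryos of stage E11.5-13.5 (MEF) gave 1 array. No group had a control antibody. LN stroma differed from MEF in age, tissue and culture and from the lines in strain and culture, and the lines differed from MEF in strain and tissue and in being established lines. These factors cannot be told apart. The labels do not tell whether both arrays of a line were grown apart. No arrays were replicates of 1 condition, so neither technical nor culture spread was measured. The p-values rest on how far the antibody difference disagreed between the lines, pooled with the spread over all genes. A response in 1 line alone thus counts as spread.

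Hyaluronan is a long unbranched sugar polymer. Synthases in the plasma membrane build it from UDP-glucuronic acid and UDP-N-acetylglucosamine and push it out of the cell. Outside, it is held by receptors such as CD44 and by proteoglycans such as versican, the product of Vcan. TSG-6, the product of Tnfaip6, transfers heavy chains of inter-α-inhibitor onto it. Hyal2 and Cemip act in its cleavage at or near the cell surface, and Hyal1 acts in lysosomes. Fibroblasts are a main source of hyaluronan in connective tissue, and LN take up hyaluronan arriving in lymph.

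Promoter sequence is shown for the members with the widest differences between cell sources (Has1, Tnfaip6 and Cemip) and for Hyal2, whose antibody difference had the smallest p among the tested members. RefSeq (GRCm38.p6) held a promoter for 7 of the 9 members, and the 250 bases before the transcript start are given, read on the strand of the gene. They lie at chr17:17855189-17855438 on the minus strand for Has1, chr2:52037863-52038112 on the plus strand for Tnfaip6, chr7:84086506-84086755 on the minus strand for Cemip and chr9:107568913-107569162 on the plus strand for Hyal2. Capitals mark a match to TGANTCA (the AP-1 motif), to TATAAA or to the κB consensus, searched on both strands.
Has1: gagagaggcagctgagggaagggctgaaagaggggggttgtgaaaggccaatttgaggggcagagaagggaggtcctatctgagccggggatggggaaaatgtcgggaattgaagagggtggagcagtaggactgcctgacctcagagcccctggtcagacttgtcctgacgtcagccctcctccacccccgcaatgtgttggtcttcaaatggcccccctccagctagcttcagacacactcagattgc
Tnfaip6: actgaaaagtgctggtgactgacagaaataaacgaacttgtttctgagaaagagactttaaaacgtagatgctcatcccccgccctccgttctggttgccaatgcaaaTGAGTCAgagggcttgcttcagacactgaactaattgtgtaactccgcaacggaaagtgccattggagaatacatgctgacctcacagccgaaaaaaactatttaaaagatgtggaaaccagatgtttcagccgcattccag
Cemip: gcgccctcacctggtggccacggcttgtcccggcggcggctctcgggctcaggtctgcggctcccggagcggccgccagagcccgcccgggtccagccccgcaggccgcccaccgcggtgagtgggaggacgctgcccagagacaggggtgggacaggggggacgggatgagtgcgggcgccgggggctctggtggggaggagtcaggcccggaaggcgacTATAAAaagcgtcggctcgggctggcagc
Hyal2: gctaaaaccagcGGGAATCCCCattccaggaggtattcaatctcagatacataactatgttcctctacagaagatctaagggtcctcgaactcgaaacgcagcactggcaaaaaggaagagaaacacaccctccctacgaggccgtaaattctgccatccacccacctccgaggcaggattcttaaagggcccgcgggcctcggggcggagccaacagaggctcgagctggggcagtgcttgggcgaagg

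Tnfaip6 held TGAGTCA 142 to 136 bases before its start, a match to a motif found in 6.75% of 32851 promoter windows of this length. Cemip held TATAAA 29 to 24 bases before its start, as 12.4% of windows did. Hyal2 held a κB match 238 to 229 bases before its start, present in 3.90% of windows. Has1, Cd44, Vcan and Hyal1 held none of these motifs. GGGCGG, searched likewise and found in 32.7% of windows, was matched in Tnfaip6, Vcan, Cemip, Hyal1 and Hyal2, where it is not capitalised, and overlapped none of the other matches. A match describes letters in this window only.

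The deposited values are linear intensities, and levels are given here as log2 intensity, on which 1 unit is a 2-fold difference. Levels of different genes rest on different probes and are compared only within a gene. Array medians ran from 5.69 to 5.82, and no detection call was used, so differences are approximate where the lower level lies below its array's median. The 8 fibroblastic stroma markers, among them Pdpn, Pdgfra and Col1a1, lay at or above the median on every array. Of 5 lymphocyte markers, 0 did so in LN stroma, where Ptprc, which encodes CD45, was at 5.70, and their summed linear intensity was 193 there against 108 to 145 on the other arrays. Of 6 endothelial markers 4 did so in LN stroma, Tek at 8.18, Pecam1 (CD31) at 6.44, Cdh5 at 5.97 and Emcn at 5.88. The summed intensity of the 6 was 576 there, against 202 to 223 in the lines and 399 in MEF. Emcn (6.96) and Flt4 (7.34) were higher in MEF than in LN stroma. The part of these other cell types in the results was not tested. In bulk RNA, fewer cells of a type and less RNA per cell cannot be told apart.

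**Figure D1:**
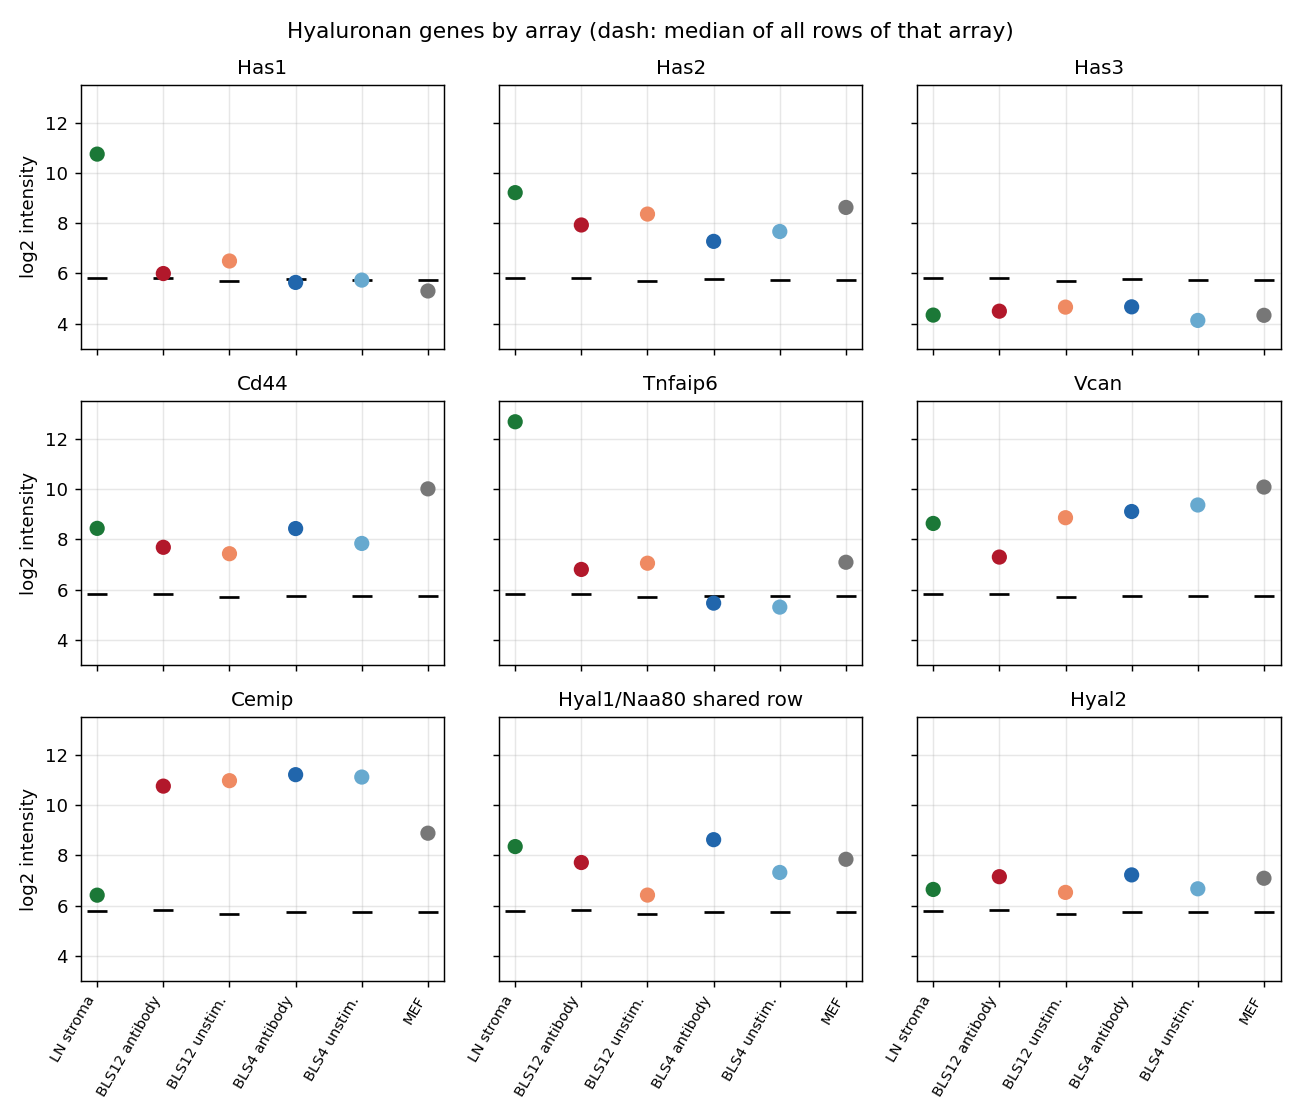
Log2 intensity (vertical axis) of the 8 hyaluronan genes and of the entry shared by Hyal1 and Naa80 on each of the 6 arrays (horizontal axis), 1 point per array, with a dash at the median of all entries of that array. Has1 and Tnfaip6 stand at 10.75 and 12.68 in LN stroma, far above the other arrays, Cemip stands lowest there at 6.42, and Has3 lies below the dash on every array.

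Among the synthases, Has1 was found at a high level in LN stroma alone of the sources. Its level was 10.75 in LN stroma, 5.99 and 6.49 in antibody-treated and unstimulated BLS12, 5.64 and 5.73 in antibody-treated and unstimulated BLS4, and 5.30 in MEF. LN stroma stood 4.25 units above the next array, unstimulated BLS12. The other 5 arrays ran from 5.30 to 6.49, where array medians were 5.69 to 5.82. Has2, the synthase of long chains that is the main one in many fibroblasts, was at 9.21 in LN stroma, 7.93 and 8.36 in antibody-treated and unstimulated BLS12, 7.27 and 7.67 in antibody-treated and unstimulated BLS4, and 8.63 in MEF. Its levels were well above the median everywhere and covered 1.94 units. Has3 ran from 4.13 in unstimulated BLS4 to 4.67 in antibody-treated BLS4, with LN stroma at 4.34 and MEF at 4.33. It lay below the median on all 6 arrays and entered no comparison.

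The binding genes each followed their own order. Tnfaip6 was at 12.68 in LN stroma, 6.80 and 7.05 in antibody-treated and unstimulated BLS12, 5.46 and 5.30 in antibody-treated and unstimulated BLS4, and 7.08 in MEF. It had the widest span of the 8 genes, 7.38 units, with BLS4 below its array medians. Cd44, the chief hyaluronan receptor, was at 8.43 in LN stroma, 7.68 and 7.42 in antibody-treated and unstimulated BLS12, 8.43 and 7.83 in antibody-treated and unstimulated BLS4, and 10.01 in MEF. MEF were highest by 1.57 units, and LN stroma and antibody-treated BLS4 were level. Vcan was at 8.63 in LN stroma, 7.29 and 8.86 in antibody-treated and unstimulated BLS12, 9.10 and 9.36 in antibody-treated and unstimulated BLS4, and 10.08 in MEF. For Vcan too MEF were highest, and antibody-treated BLS12 stood 1.34 units below the next array.

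Of the genes of breakdown, Cemip was highest in the lines. Its level was 6.42 in LN stroma, 10.75 and 10.97 in antibody-treated and unstimulated BLS12, 11.21 and 11.12 in antibody-treated and unstimulated BLS4, and 8.88 in MEF. All 4 line arrays lay at least 1.87 units above MEF, and MEF lay 2.47 above LN stroma. Hyal2, a hyaluronidase anchored at the cell surface, was at 6.64 in LN stroma, 7.15 and 6.53 in antibody-treated and unstimulated BLS12, 7.22 and 6.67 in antibody-treated and unstimulated BLS4, and 7.09 in MEF. It varied least among the genes above the median, by 0.70. Both antibody-treated arrays were above both unstimulated ones and LN stroma. Antibody-treated BLS12 was only 0.06 above MEF, less than the SD of a difference between 2 arrays (0.195, described below).

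The 2 entries that name both Hyal1, a lysosomal hyaluronidase, and Naa80, an acetyltransferase, cannot be assigned to either gene here. In RefSeq the genes are overlapping neighbours. The entry whose listed RefSeq transcript is that of Hyal1 was at 8.35 in LN stroma, 7.71 and 6.42 in antibody-treated and unstimulated BLS12, 8.62 and 7.32 in antibody-treated and unstimulated BLS4, and 7.84 in MEF. The entry whose listed transcript is that of Naa80 was at 8.02 in LN stroma, 7.58 and 6.54 in antibody-treated and unstimulated BLS12, 8.23 and 7.49 in antibody-treated and unstimulated BLS4, and 7.50 in MEF. In both entries the antibody-treated array of each line lay above the unstimulated one.

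With 1 array per line and condition, the only measure of spread used was the residual SD of the cell line model described below. The limma fit drew it towards a value shared by all genes (prior SD 0.151, 4.59 degrees of freedom against 1 of the gene's own). After this it was 0.14 to 0.19 for 7 of the genes and 0.31 for Vcan (Has3 from the fit without an intensity filter). Set against the SD of a difference between 2 arrays on this basis, 5 of the 5 gaps between neighbouring arrays were smaller for Has3, 4 for Hyal2, 3 for Vcan, 2 each for Cd44, Tnfaip6 and Cemip, 1 for Has1 and 0 for Has2. Those neighbours have no settled order, and larger gaps may not either, since a gene's own spread rests on 1 degree of freedom.

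The comparison of LN stroma with MEF set fresh adult stroma against cultured embryonic fibroblasts. Tnfaip6 was 48.2-fold and Has1 43.6-fold higher in LN stroma, and Cemip was 5.53-fold lower, with 1 array on each side and no replicate check. On the log2 scale these differences were 5.59, 5.45 and -2.47. Cd44 differed by -1.57, Vcan by -1.45, Hyal2 by -0.45 and Has2 by 0.59. By a size of at least 4-fold, 2 members were higher and 1 lower of the 7 that reached an array median on at least 1 side, against 7.57% of 12613 genes, 4.64% higher and 2.93% lower. Has1 was above the median in LN stroma and not in MEF, so it had to differ to be kept, and its size is approximate. The median over these 7 was -0.45, beside -0.11 over all genes kept.

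Against the unstimulated lines, LN stroma was again set apart in Tnfaip6, Has1 and Cemip. Tnfaip6 was 49.5-fold higher than in BLS12 and 166-fold higher than in BLS4, which lay below its array median, and Has1 19.1-fold and 32.3-fold higher, with BLS4 again below its median. Cemip was 23.5-fold lower than in BLS12 and 26.0-fold lower than in BLS4. Has2 was higher than in both lines, by 0.85 and 1.55 log2 units, and Cd44 by 1.01 and 0.60. Vcan differed by -0.23 and -0.73, and Hyal2 by 0.12 and -0.03. At least 4-fold against both lines were 3 of 7 members, 2 higher and 1 lower, while 4.09% of 12827 genes were so, 3.52% higher and 0.569% lower. This comparison and that with MEF use the same LN stroma array and do not support each other.

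Immediate early genes, which respond within minutes to stimuli, stood apart on the same LN stroma array. Their list was added with earlier results of these data known. All 8, Fos, Fosb, Jun, Junb, Egr1, Atf3, Ier2 and Dusp1, were at least 4-fold higher in LN stroma than in MEF and than in both unstimulated lines, beside 4.64% and 3.52% of all genes higher by that size. Their summed linear intensity was 46588 in LN stroma, 1491 to 2478 in the lines and 2517 in MEF. The part of this in the Has1 and Tnfaip6 levels was not tested.

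**Figure D2:**
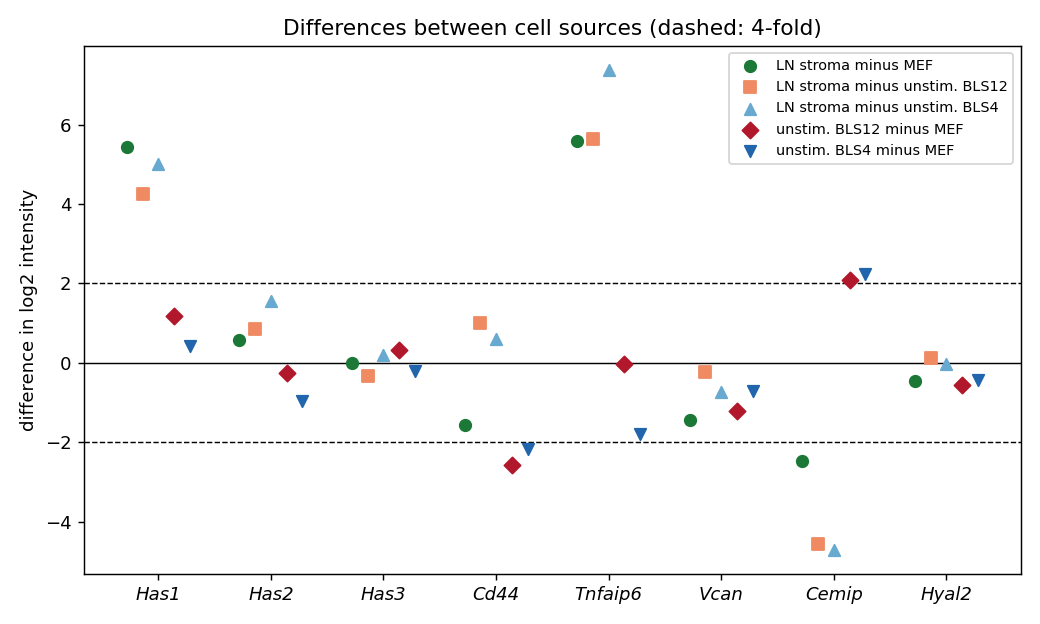
Difference in log2 intensity (vertical axis) for each of the 8 hyaluronan genes (horizontal axis), 1 point per pair of arrays, with dashed lines at 4-fold. Has1 and Tnfaip6 lie above the upper line in all comparisons of LN stroma, and Cemip lies below the lower line in LN stroma and above the upper one in both lines against MEF.

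Set against MEF, the unstimulated lines had more Cemip and less Cd44. Cemip was 4.26-fold higher in BLS12 and 4.70-fold higher in BLS4 than in MEF, which are differences of 2.09 and 2.23. Cd44 was 5.98-fold and 4.51-fold lower. These 2 of 7 members were at least 4-fold apart in the same direction in both lines, against 1.44% of 12676 genes, 0.308% higher and 1.14% lower. Tnfaip6 differed by -0.04 in BLS12 and by -1.78 in BLS4, Vcan by -1.22 and -0.71, Has2 by -0.26 and -0.96, Has1 by 1.19 and 0.43, and Hyal2 by -0.56 and -0.42. Cd44 is also carried by leukocytes. The 6 myeloid markers, all at or above the median in MEF, summed to a linear intensity of 2040 there. The sum was 632 in unstimulated BLS12 and 662 in unstimulated BLS4. Lyz2, at 10.36 in MEF against 7.82 in unstimulated BLS12 and 8.54 in unstimulated BLS4, weighed most in the MEF sum. Cd14 alone went the other way, at 5.75 in MEF against 8.0 and 6.50. The part of myeloid cells in the Cd44 difference was not tested.

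The antibody comparison asked which of the members changed when LTβR was stimulated, with each line as its own control. In limma's additive model, with terms for the line and the antibody and fitted to the 4 line arrays, none of the 7 tested members passed an adjusted p of 0.05, where 0.275% of 11988 genes did, 0.2% higher and 0.0751% lower with antibody. At an unadjusted p under 0.05 there were 4 members, Hyal2, Has2, Vcan and Cd44, while 11.6% of all genes lay under it. The median difference over the 7 was -0.06, beside -0.02 over all genes tested.

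Hyal2 had the smallest p. It averaged 7.19 with antibody and 6.60 without, a difference of 0.59 (SE 0.138, 95% interval 0.25 to 0.93, adjusted p = 0.197 in limma), and was higher by 0.62 in BLS12 and by 0.55 in BLS4. Has2 averaged 7.60 with antibody and 8.01 without, a difference of -0.41 (interval -0.75 to -0.07, adjusted p = 0.356 in limma), lower in both lines by about the same amount. Cd44 differed by 0.42 (interval 0.04 to 0.81, adjusted p = 0.394 in limma), by 0.25 in BLS12 and 0.59 in BLS4. None of these sizes reached a 2-fold change in either line.

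Vcan differed by -0.91 (SE 0.308, interval -1.68 to -0.14, adjusted p = 0.364 in limma). Most of this came from BLS12, in which it was 2.96-fold lower with antibody, a difference of -1.57, against -0.26 in BLS4. Some markers of other cell types also differed with antibody in BLS12. The 6 myeloid markers summed to linear intensities of 1815 in antibody-treated and 632 in unstimulated BLS12, against 682 and 662 in BLS4. Of these, Cd14 was at 9.73 and 8.0 and Lyz2 at 9.63 and 7.82 in antibody-treated and unstimulated BLS12, while Itgam, Csf1r and Adgre1 were below the median on all 4 line arrays. Cd68 was at 6.26 and 6.05 in antibody-treated and unstimulated BLS12. In BLS4, Cd14 was at 7.09 with antibody and 6.50 without, and Lyz2 at 7.84 and 8.54. The 5 epithelial and mesothelial markers summed to 759 in antibody-treated and 1687 in unstimulated BLS12, against 291 and 326 in BLS4. Among them the mesothelial gene Upk3b was at 8.61 in antibody-treated and 10.17 in unstimulated BLS12, and Epcam was below the median on all 4 line arrays. On the same BLS12 arrays Msln was at 7.55 and 8.44, Krt8 at 6.52 and 6.79 and Krt18 at 6.10 and 5.91. Whether such cells were present, and their part in the Vcan difference, was not tested.

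Has1 differed by -0.30 (interval -0.70 to 0.11), Cemip by -0.06 (interval -0.44 to 0.32) and Tnfaip6 by -0.04 (interval -0.45 to 0.36). For these 3 genes the intervals left out a 2-fold change in either direction. They rest on no replicate arrays and mostly on the spread pooled over all genes. Has1 and Tnfaip6 also lay below the array medians in BLS4, where differences are approximate. Has3 differed by -0.16 in BLS12 and 0.54 in BLS4, below the medians.

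The entry listing the Hyal1 transcript was higher with antibody by 1.30 in BLS12 and by 1.30 in BLS4. Averaged over the lines this was larger in size than the difference of any tested member, although that of Vcan in BLS12 alone was -1.57. When both shared entries were added to the fit, a choice made after seeing the data, this one differed by 1.30 (SE 0.137, adjusted p = 0.0447 in limma). The other differed by 0.89 (SE 0.151, adjusted p = 0.108), by 1.04 in BLS12 and 0.74 in BLS4. Under the other settings the adjusted p of the first ran from 0.0164 to 0.0830 with the cell line in the model. It was not under the threshold after quantile normalization (0.0830) or without the cell line in the model (1.00). Neither entry tells how much of the signal belongs to Hyal1.

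**Figure D3:**
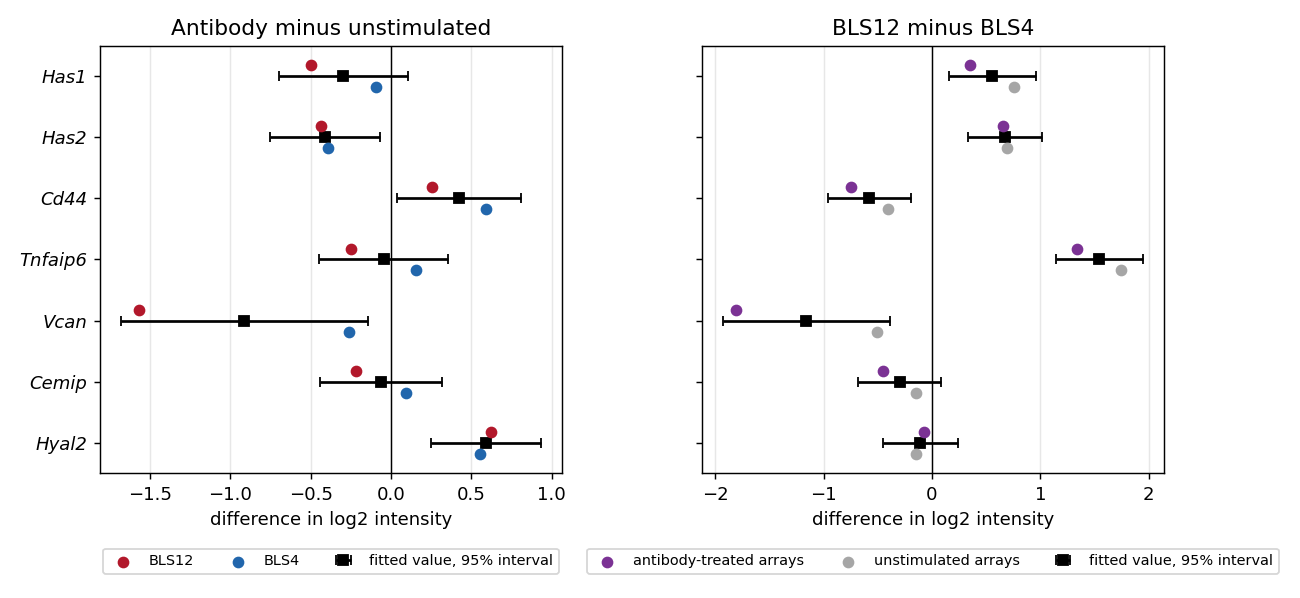
Differences in log2 intensity (horizontal axes) for the 7 tested hyaluronan genes (rows), antibody minus unstimulated on the left and BLS12 minus BLS4 on the right. Squares with bars are limma's fitted values with 95% intervals, and circles are the single lines or conditions. Vcan has the widest intervals, since its antibody difference was -1.57 in BLS12 and -0.26 in BLS4.

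The lines differed from each other in Tnfaip6, Has2, Vcan and Cd44. In the same limma model 4 of 7 members passed, 2 higher and 2 lower in BLS12, beside 23.6% of all genes tested, 12.2% higher and 11.4% lower. Tnfaip6 was higher in BLS12, averaging 6.92 in BLS12 and 5.38 in BLS4, a difference of 1.54 (SE 0.162, adjusted p = 0.00367 in limma), or 2.92-fold. Since BLS4 lay below its array medians, Tnfaip6 passed the filter through its BLS12 level alone. Has2 was higher in BLS12 by 0.67 (SE 0.137, adjusted p = 0.0226). Vcan was lower in BLS12 by a difference of -1.16 (SE 0.308, adjusted p = 0.0469), and Cd44 by one of -0.58 (SE 0.154, adjusted p = 0.0477). In each of the 4 genes both conditions had the same sign. A call in this fit requires that, so it adds no support.

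The Vcan difference was -1.81 in antibody-treated and -0.51 in unstimulated cells. The calls of Vcan and Cd44 lay near the threshold. Vcan was lost after quantile normalization (adjusted p = 0.0562), without an intensity filter (0.0501), with an intensity trend (0.148) and without the antibody term (0.206). Cd44 was lost after centring (0.0631), without the filter (0.0505) and without the antibody term (0.177). Has2 was lost in the last setting alone of those run (0.116). Has1 differed by 0.56 (adjusted p = 0.0593), was kept through its BLS12 level alone and passed with an intensity trend (adjusted p = 0.0449). Cemip differed by -0.30 (adjusted p = 0.211) and Hyal2 by -0.11 (adjusted p = 0.616). Both shared entries, added after seeing the data, were lower in BLS12, by differences of -0.90 and -0.80 (adjusted p = 0.0102 and 0.0181). Without the antibody term both were lost (adjusted p = 0.364 and 0.267). The epithelial and mesothelial sums given above also differed between the lines in both conditions. The myeloid sums parted with antibody (1815 in BLS12 against 682 in BLS4) and were close without it (632 against 662). Among the myeloid markers Cd14 was higher in BLS12, by 2.07, and Cd68 lower, by a difference of -1.10. The part of these markers' cell types in the line differences was not tested.

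Other genes of hyaluronan metabolism and its matrix were followed in 5 lists of 41 genes, of which 40 had an entry and 22 passed the filter in the lines. With antibody 0 of the 22 passed in limma, beside 0.275% of all genes tested, and 8 had an unadjusted p under 0.05, beside 11.6%. Among the 8, Hyal3 and Stab1 lay below the median in both unstimulated lines. They passed the filter only through the antibody-treated arrays, where they were higher, so they add no support to that count. Between the lines 14 passed, in a fit in which 23.6% of all genes did, 12.2% higher and 11.4% lower in BLS12, with a median difference of 0.0026 over all genes.

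Enzymes that supply UDP-sugars had all 7 members measured in every comparison. Gfpt2, an isoform of the enzyme that commits glucose to hexosamine synthesis, was at 11.42 in LN stroma, 7.08 to 8.24 in the lines and 7.83 in MEF. It was the 1 member of the list at least 4-fold apart, beside 7.57% of all genes against MEF and 4.09% against both lines, with LN stroma higher by 3.59 than MEF and by 4.34 and 3.57 than unstimulated BLS12 and BLS4. Uap1, which makes UDP-N-acetylglucosamine, was higher in LN stroma than in MEF by 1.39. Between the lines 0 were higher and 3 lower in BLS12, beside 12.2% and 11.4% of all genes, and the median over the 7 was -0.62. The 3 were Ugdh, which makes UDP-glucuronic acid (-0.89, adjusted p = 0.0108), Gfpt2 (-0.75, adjusted p = 0.0168) and Pgm3 (-0.62, adjusted p = 0.0379). With antibody the widest difference was that of Ugp2, -1.03 (adjusted p = 0.111).

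Partners of TSG-6 on hyaluronan include heavy chains of inter-α-inhibitor and the pentraxin Ptx3. The list followed here took in related Itih genes as well, and which of them act with TSG-6 was not tested. Itih5 was at 10.85 in LN stroma, 4.58 to 4.70 in the lines and 4.96 in MEF. It was thus below the median on every array but that of LN stroma. Of the 7 listed genes 5 could be compared between LN stroma and MEF, and 3 were at least 4-fold higher in LN stroma, Itih5 (5.89), Itih4 (2.44) and Itih3 (2.06), beside 4.64% of all genes. All 3 were below the median in MEF and were compared through their LN stroma level. Of the others compared, Ptx3 differed by 0.99 and Itih2 by -0.63, and Itih1 lay below the median on every array. Itih5 and Itih3 were also at least 4-fold higher than in both unstimulated lines, as 3.52% of all genes were, and both were below the median there and kept through LN stroma alone, so the sizes are approximate. Itih4 was at 7.70 in antibody-treated and 5.44 in unstimulated BLS12, against 5.53 and 5.28 in BLS4, and was not tested in the lines. Ptx3 was lower in BLS12 than in BLS4, by a difference of -3.48 (SE 0.291, adjusted p = 0.00179 in limma), and with antibody it differed by -1.12 (adjusted p = 0.240).

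Of 12 other receptors, link proteins and proteoglycans that bind hyaluronan, 5 passed the filter in the lines, and 2 were higher and 1 lower in BLS12, beside 12.2% and 11.4% of all genes, with a median over the 5 of -0.03. Layn, the receptor layilin, was lower by a difference of -2.04 (adjusted p = 0.000979), while Hapln4, a link protein, was higher by 1.56 (adjusted p = 0.00276) and Hmmr, a hyaluronan-binding protein that also acts at the mitotic spindle, by 1.54 (adjusted p = 0.0256). Hmmr was at 4.43 in LN stroma and 7.55 in MEF, a difference of -3.13. It lay below the median in LN stroma and was compared through its MEF level, so the size is approximate. The other 5 genes compared were less than 4-fold apart. Lyve1, the receptor of lymphatic endothelium, was below the median on all 6 arrays, at 5.71 in LN stroma and 4.68 to 5.12 on the others. With antibody Stab1, a scavenger receptor for hyaluronan, had the widest difference of this list, 0.67 (adjusted p = 0.151), and it was below the median in both unstimulated lines.

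Of 4 other hyaluronidases and lysosomal glycosidases tested in the lines, Hexa (-1.63, adjusted p = 0.00329) and Gusb (-0.97, adjusted p = 0.0101), which remove sugars from the ends of chains, were lower in BLS12. Cemip2, a relative of Cemip, was higher in BLS12 by 0.93 (adjusted p = 0.0220). These 1 higher and 2 lower of 4 stand beside 12.2% and 11.4% of all genes, with a median over the 4 of -0.50. Cemip2 was at 6.65 in LN stroma and 7.94 in MEF, a difference of -1.30, and like Cemip it was lower in LN stroma than in both unstimulated lines, by differences of -2.20 and -1.57. The testis hyaluronidases Spam1 and Hyal5 were below 4 log2 units on every array.

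ADAMTS proteases that cleave versican had 5 of 6 members tested in the lines, 1 higher and 3 lower in BLS12, beside 12.2% and 11.4% of all genes, with a median over the 5 of -0.93. Adamts1 (-2.58, adjusted p = 0.00189), Adamts5 (-2.52, adjusted p = 0.00105) and Adamts4 (-0.93, adjusted p = 0.00991) were lower, and Adamts9 (1.27, adjusted p = 0.0138) was higher. With antibody Adamts1 differed by -1.36 (adjusted p = 0.0941), by -1.76 in BLS12 and -0.96 in BLS4. Adamts15 was at 7.72 in LN stroma and 5.30 in MEF, a difference of 2.41. It lay below the median in MEF and was compared through its LN stroma level, so the size is approximate. The other 5 were less than 4-fold apart there.

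**Figure D4:**
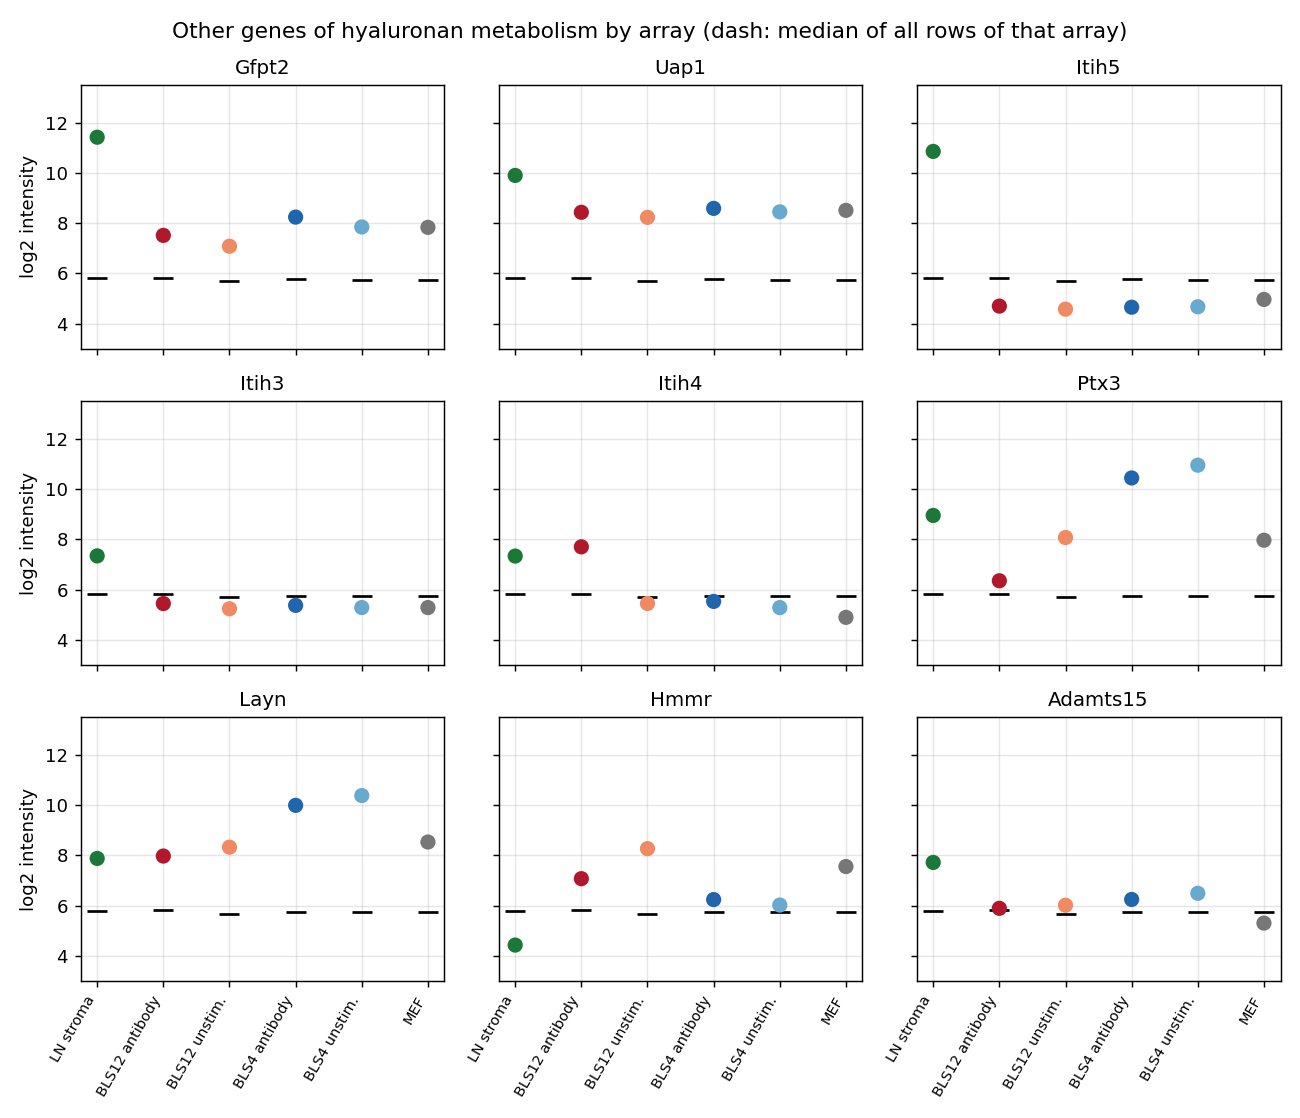
Log2 intensity (vertical axis) of 9 other genes of hyaluronan metabolism on each of the 6 arrays (horizontal axis), 1 point per array, with a dash at the median of all entries of that array. Gfpt2 and Itih5 stand at 11.42 and 10.85 in LN stroma, above all other arrays, and Ptx3 and Layn stand highest in the BLS4 arrays.

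The genes most like each member over the 6 arrays were taken by Pearson's r among 1874 genes spanning at least 2 units. Most of these correlations rest on 1 or a few arrays and are a description only. Fmo1, a flavin monooxygenase, was most like Has1 (r = 0.998), followed by Rspo1 (0.995). Pdlim3 (0.994) and Gucy1a1 (0.988), a subunit of the nitric oxide receptor, were most like Tnfaip6. Lrp11 (0.995) and Frk (0.987) were most like Cemip, Sorbs2 (0.986) and Cd80 (0.978) most like Cd44, and Myadm (0.981) and Ehd4 (0.958) most like Vcan. Has2, Has3 and Hyal2 spanned less than 2 units and were not matched.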

How the data were processed

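The authors deposited linear intensities per transcript cluster, for which they used Affymetrix Expression Console 1.1 per the submitters' processing notes in the labels. Algorithm, normalization and genome build are not given in the sources used here. All values were at least 3.55, and log2 needed no pseudocount. Of 35557 table entries, 21789 named 1 gene, 1621 several and 12147 none in GEO's platform annotation. Of those with 1 gene, 21698 were matched to RefSeq by Entrez ID, and 0 symbols changed. The brightest entry stood for each gene.

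Genes at or above the array median on at least 2 of the 4 line arrays entered 1 additive model of cell line and antibody in limma 3.58.1 (R 4.3.3; lmFit, eBayes, two-sided, Benjamini-Hochberg over 11988 genes), with 1 residual degree of freedom. Same-numbered arrays were of the same line, so the line was kept as a block. The model was tested on simulated data. Comparisons with LN stroma or MEF had 1 array on a side, were not tested, and kept genes at or above the median on at least 1 array compared. Arrays carry no counts, and their number limits the precision. Named genes were all members, up to 3 called and 3 other genes of each list with the largest difference per comparison, and the 2 genes most like each member. Members and lists were chosen with earlier results of these data known. Alternatives covered scaling, the filter, the entry rule, the variance moderation, the block and single lines or conditions.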

Additional observations from a re-analysis of the deposited data

Results flagged for a closer look

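The antibody differences of 3 members had opposite signs in the lines. Cemip differed by -0.22 in BLS12 and 0.10 in BLS4, Tnfaip6 by -0.25 in BLS12 and 0.16 in BLS4, and Has3, below the medians on all arrays, by -0.16 in BLS12 and 0.54 in BLS4. With 1 array per line and condition, the difference between the lines was not tested.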

How the results depend on the processing

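The members at least 4-fold apart stayed the same 3 for LN stroma against MEF, the same 3 against the unstimulated lines and the same 2 for the lines against MEF after centring, quantile normalization, dropping the filter and averaging entries, and, where lines took part, without either line. Of these settings only centring and quantile normalization could have removed a member. Each member had 1 entry, so averaging changed nothing for them. Dropping the filter or a line could only have added members. At 2-fold, 5 of 7 members differed between LN stroma and MEF, as did 2815 of 12613 genes. The number of members called with antibody was 0 in all settings that gave a test, the fit without the cell line as a replicate block included (1 unadjusted p under 0.05, that of Hyal2). Between the lines 2 members (Has2 and Tnfaip6) passed without the filter, beside 2895 of 19938 genes. Without the antibody term 1 (Tnfaip6) passed, beside 1428 of 11988 genes. Over all genes, the antibody count of 33 became 98 after centring, 6 after quantile normalization, 54 without the filter, 104 with an intensity trend and 0 without the replicate block (241 with an unadjusted p under 0.05). The line count of 2835 became 1428 without the antibody term. At 2-fold the counts of 955, 183 and 524 genes for LN stroma against MEF, lines against MEF and LN stroma against lines became 2815, 738 and 1447. Leaving out a line gave 385 to 463 genes for lines against MEF (463 without BLS4, 385 without BLS12) and 762 to 981 for LN stroma against lines (981 without BLS4). The cause of these shifts was not tested, except that fewer conditions met at once let more genes pass. No member in these comparisons reversed its sign once called, but only the changes of scaling could have reversed one. Single line and single condition values stand in the report.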
